A study of Mus musculus with 33 samples.

Results

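The change 4 months after ovariectomy (OVX) was compared between 2 regions of the mouse hypothalamus, the posterior hypothalamus (PH) and the preoptic area (POA). For each gene, the change in a region was the mean log2 value at 4 months minus that in intact mice, adjusted for a covariate. The covariate was the first surrogate variable (SV1) of the region, an estimate of variation not due to the groups. The difference between the regions was the change in the PH minus the change in the POA. The libraries were chosen by their titles, and 21 of the 33 libraries of the series entered the comparison. From intact mice there were 4 PH and 5 POA libraries, and from mice 4 months after OVX 6 of each region. All mice were adult WT C57BL/6 females. The intact mice were killed in diestrus without OVX, although the titles of their libraries say sham, and the 4-month mice had lived without ovaries for 4 months. The 4-month mice were therefore older than the intact ones, and no intact mice of their age are among the samples, so that age and time since OVX cannot be told apart. The other 12 libraries, from mice 14 days after OVX, were not compared. They entered the fit for the estimates of the spread and of SV1, and so bear on the changes. Nothing in the labels says which libraries came from 1 mouse, and *P* values here measure the spread between these samples.

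Stranded libraries were made from the mRNA of dissected tissue. The deposited values are a normalized, linear signal in which silent genes stand near a floor of 22.1 instead of 0. Changes of weakly expressed genes are therefore compressed. Library sums differed by less than 2 times and are not read totals, so the depth behind a value is unknown. The values also carry a component seen in 108 genes, and its share in other genes is not known. Of its variation across libraries, 83.5% lay between the regions, and the step behind it is not stated. For that reason only changes within a region were compared between regions, and levels were not. This does not remove the component, whose mean was -0.1685 in the intact PH and -0.1669 in the PH at 4 months. In the POA it was 0.1776 in intact mice and 0.1365 at 4 months. Every group was spread over 2 batches, with 2 or 3 libraries in each, and values within a batch, fitted without SV1, are given beside the results. Of the 16161 protein-coding genes tested, the median gene changed by -0.01 in the PH and by -0.02 in the POA on the log2 scale. Defining markers of neurons, astrocytes, microglia, oligodendrocytes and their precursors, endothelial and mural cells, ependyma and tanycytes, thalamus, striatum and the preoptic area lay at 2 times the floor or more. *Gh* and *Prl* of the pituitary and *Kiss1* of the arcuate nucleus did not. The choroid plexus markers varied most, and their summed values ranged from 1259 to 58000.5 in the intact PH, 1278 to 76224 in the PH at 4 months, 1885 to 83696 in the intact POA and 1575 to 26021 in the POA at 4 months. In bulk tissue, fewer cells of a type and less RNA per cell cannot be told apart.

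Kisspeptin neurons of the hypothalamus relay the feedback of estradiol to the neurons that release gonadotropin-releasing hormone. Those of the arcuate nucleus, which lies toward the posterior side, also make neurokinin B and dynorphin and are called KNDy neurons, and estradiol restrains their kisspeptin. Those near the preoptic area are stimulated by estradiol. Microglia, the resident macrophages of the brain, make the starter subunit of the complement cascade and become more reactive with age.

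The gene whose change differed most between the regions was *Gm28040* (chr1:133237565-133257465, plus strand, GRCm39), a predicted gene that overlaps the kisspeptin locus. The annotation holds 13 coding transcripts there. The 2 coding exons that 11 of them share are printed, because they encode the kisspeptin precursor, and 5 further coding segments upstream and variant ends of these exons are left out. The exons were read from GRCm39 with the GENCODE M39 annotation. In the coding exon at chr1:133254988-133255078 the capitals mark the start codon, and in that at chr1:133257094-133257383 they mark the stop codon.
Gm28040 coding exon 1: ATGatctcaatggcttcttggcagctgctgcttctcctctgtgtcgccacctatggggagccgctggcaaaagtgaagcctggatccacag
Gm28040 coding exon 2: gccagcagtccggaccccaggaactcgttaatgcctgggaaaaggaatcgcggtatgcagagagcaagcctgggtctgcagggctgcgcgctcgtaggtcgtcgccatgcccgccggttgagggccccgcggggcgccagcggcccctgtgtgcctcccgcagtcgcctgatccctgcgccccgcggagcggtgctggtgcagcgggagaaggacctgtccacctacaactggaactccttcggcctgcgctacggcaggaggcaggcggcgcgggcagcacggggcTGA

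*Gm28040* rose in the PH, where its values in the intact libraries were 37.1, 38.3, 39.3 and 40.8. At 4 months they were 96.0 to 326 (median 127), and every 4-month library lay above every intact one. In the POA, the intact libraries stood at 88.1, 115, 146, 171 and 191. After 4 months the POA libraries ranged from 48.8 to 96.3 (median 77.1), and 4 of 6 lay below every intact library. The intact PH values lie under 2 times the floor, so that the change in the PH is compressed. On the log2 scale the change was 1.88 ± 0.22 (SE) in the PH, 3.67-fold (limma, adjusted *P* = 1.51e-05). In the POA it was -0.80 ± 0.21, which did not pass the adjustment (unadjusted *P* = 6.5e-04, adjusted *P* = 0.276). The difference between the regions was 2.67 ± 0.31 on the log2 scale, with a 95% interval of 2.05 to 3.30 (limma, adjusted *P* = 1.38e-05). Within batches it was 2.15 in batch 1 and 3.28 in batch 2.

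The highest *Gm28040* value in the PH, 326, came from replicate 5 at 4 months, which also had the highest value of *Pomc* (725), the precursor of melanocortins made by other arcuate neurons, and of *Cartpt* (2127). Without this library the difference of *Gm28040* was 2.46 (limma, adjusted *P* = 1.31e-06). Summed over *Pomc*, *Agrp*, *Ghrh* and *Kiss1*, the arcuate markers stood at 479.8 to 542 in the intact PH and 427 to 1043 in the PH at 4 months. The same sums were 329 to 549 in the intact POA and 269 to 527 in the POA at 4 months. The part of the arcuate content of the dissections in the result was not tested. The locus has 2 gene entries named *Gm28040* in the annotation and an entry named *Kiss1* in the deposited table. The entry named *Kiss1* stood near the floor, reaching at most 46.3 in the 21 libraries compared, and the second *Gm28040* entry reached at most 39.6. How the reads of the shared exons were divided between these entries is uncertain. At 14 days after OVX, the first entry stood at 65.6 to 168 in the PH and 45.3 to 79.1 in the POA.

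**Figure D1:**
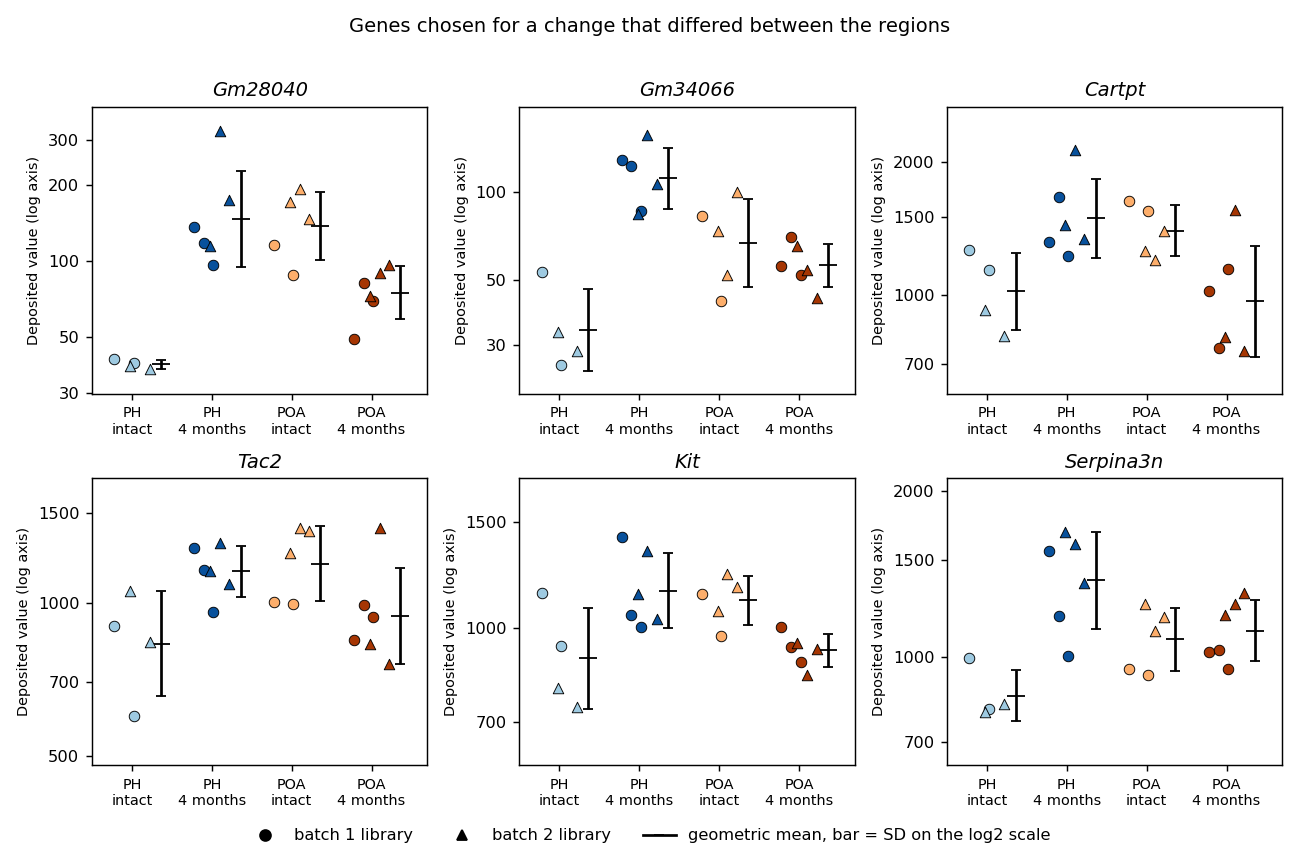
Deposited values (vertical log axis) of *Gm28040*, *Gm34066*, *Cartpt*, *Tac2*, *Kit* and *Serpina3n* in each library of the 4 groups, with circles for batch 1, triangles for batch 2 and, beside them, the geometric mean and the SD on the log2 scale. For *Gm28040* the 6 libraries of the PH at 4 months lie between 96.0 and 326, above all 4 intact ones, whereas those of the POA lie between 48.8 and 96.3, mostly below the intact libraries.

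*Gm34066* (chr1:54481723-54495949, minus strand, GRCm39), a predicted protein-coding gene, was the only other gene whose difference was called. In the PH its values were 25.7, 28.8, 33.3 and 53.3 in intact mice. After 4 months they were 84.2 to 156 (median 115), without overlap, and 3 of the 4 intact values lie under 2 times the floor. In the POA they overlapped, at 42.5, 52.1, 73.6, 83.2 and 99.8 in intact mice and 43.5 to 70.4 (median 55.2) after 4 months. The gene rose by 1.72 ± 0.24 in the PH (limma, adjusted *P* = 3.06e-04), and its change in the POA was -0.25 ± 0.23 (adjusted *P* = 0.927). The difference was 1.97 ± 0.33, with a 95% interval of 1.29 to 2.65 (limma, adjusted *P* = 0.017), and within batches 1.60 in batch 1 and 2.29 in batch 2. The difference was no longer called when any 1 of 6 libraries was left out. These were replicates 2, 3 and 4 of the intact PH, replicates 1 and 5 of the intact POA and replicate 6 of the POA at 4 months. Taken within pairs of libraries of the same replicate number, the difference was 1.83 (limma, adjusted *P* = 0.195), and that of *Gm28040* 2.77 (adjusted *P* = 0.0363).

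These 2 genes were 0.0124% of the 16161 protein-coding genes tested, and both changed more upward in the PH. At an unadjusted *P* under 0.05 (limma), 637 genes differed, 3.94% of those tested, with 350 (2.17%) more upward in the PH and 287 (1.78%) more upward in the POA. For the median gene, the 95% interval of the difference reached 0.299 to either side on the log2 scale.

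Genes that passed an unadjusted *P* under 0.05 (limma) in both regions numbered 249 with the same direction, 1.54% of those tested, and 16 with opposite directions, 0.099%. Of all genes tested, 59.8% had the same sign in both regions. The 249 genes and the 16 together were 17.8% of the 1489 genes at that threshold in the PH and 25.1% of the 1057 in the POA. Those 1489 genes were 9.21% of the genes tested, 4.25% higher and 4.96% lower, and the 1057 were 6.54%, 3.04% higher and 3.5% lower. Groups did not overlap for 150 genes in the PH (0.928%, with 0.582% higher and 0.347% lower) and for 99 in the POA (0.613%, with 0.334% higher and 0.278% lower). With groups that did not overlap in either region, 10 genes were shifted in the same direction (0.0619%) and 0 in opposite directions (0.0%). The 10 genes were *Cd34*, *Ctxnd1*, *Ggta1*, *Irf1*, *Klhl6*, *Mpeg1*, *Naip2*, *Pcdhb3*, *Pcdhga2* and *Zc3hav1*, and all were higher at 4 months. Since the 16 opposite genes were chosen by these contrasts, their values are given as a description.

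**Figure D2:**
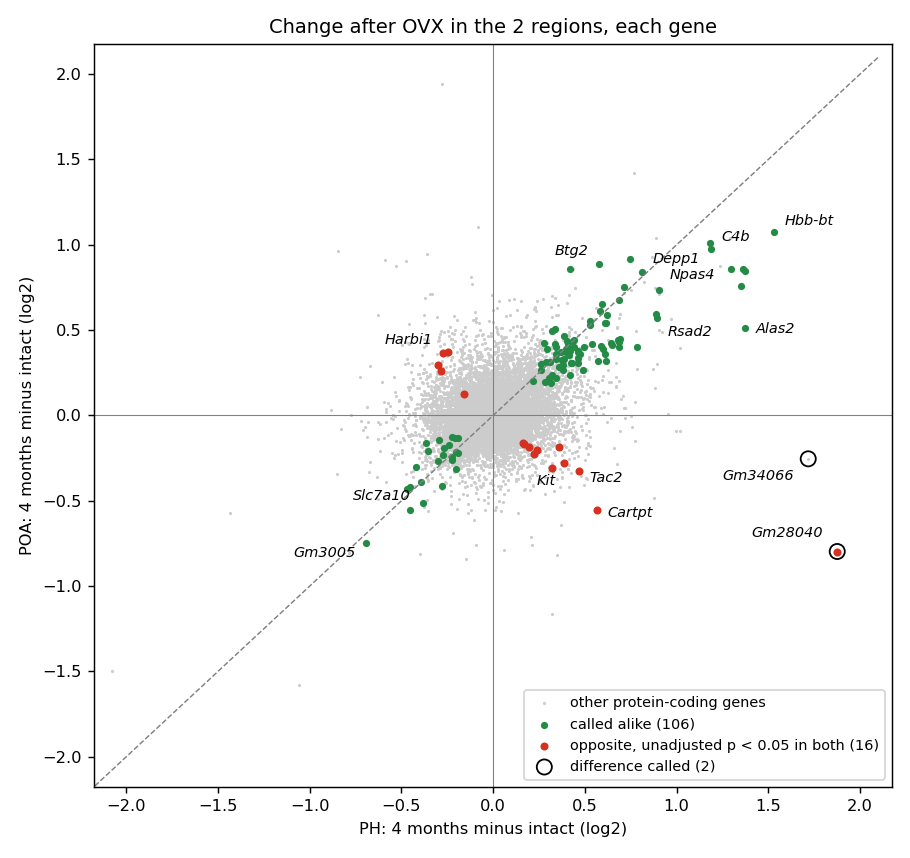
Change from intact to 4 months in the PH (horizontal axis) against that in the POA (vertical axis), both log2, with each point a protein-coding gene and the dashed line marking equal change. The 106 genes called alike (green) lie along the line in the upper right and lower left, and the 16 genes at an unadjusted *P* under 0.05 with opposite signs (red) include *Gm28040* at 1.88 and -0.80.

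Of the 16 genes with opposite directions, *Cartpt* was 1 of the 28 tested on the list of hypothalamic peptides, and 0 were on that of 28 receptors. *Cartpt*, which encodes the CART peptide of arcuate and other hypothalamic neurons, stood at 811, 926, 1141 and 1265 in the intact PH and 1222 to 2127 (median 1387) in the PH at 4 months. POA libraries stood at 1202, 1255, 1397, 1549 and 1630.3 in intact mice and 749 to 1555 (median 913) after 4 months. Of the 4-month libraries, 5 of 6 lay above every intact one in the PH and 5 of 6 below every intact one in the POA. The change was 0.56 ± 0.18 and -0.55 ± 0.17, and the difference of 1.12 ± 0.25 did not pass the adjustment (95% interval 0.60 to 1.63, adjusted *P* = 0.667). It did so without replicate 5 of the POA at 4 months, the library at 1555 (1.31, adjusted *P* = 0.0104). Within batches the difference of *Cartpt* was 0.93 in batch 1 and 1.27 in batch 2.

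*Tac2*, which encodes neurokinin B, was 599.7, 839.7, 902 and 1054 in the intact PH and 958 to 1309 (median 1158) in the PH at 4 months. POA libraries were at 995, 1006, 1251, 1387 and 1400.0 in intact mice, and after 4 months 759 to 1404 (median 891). The POA library at 1404 stood apart from the other 5, which were all below the intact libraries. The changes were 0.47 ± 0.16 and -0.33 ± 0.15, and the difference was 0.79 (95% interval 0.35 to 1.24, unadjusted *P* = 0.00107), not called after adjustment. *Kit*, the receptor for stem cell factor, had changes of 0.39 ± 0.11 and -0.28 ± 0.10, with a difference of 0.67 (95% interval 0.36 to 0.97, adjusted *P* = 0.667). Within batches the difference was 0.73 in batch 1 and 0.81 in batch 2 for *Tac2* and 0.31 in batch 1 and 0.95 in batch 2 for *Kit*. Its values were 742, 798, 935 and 1146 in the intact PH against 1005 to 1416 (median 1097) at 4 months. In the POA they were 971, 1069, 1139, 1171 and 1232 against 839 to 1006 (median 928), and 5 of 6 lay below every intact library. *Nppc*, the precursor of C-type natriuretic peptide, went the other way, with -0.30 in the PH and 0.30 in the POA.

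Among the other genes with opposite directions, *Bmp8b*, a growth factor of the BMP family, had 0.32 in the PH against -0.31 in the POA, and the translation initiation factor gene *Eif5b* had 0.36 in the PH against -0.18 in the POA. *Fancf* of the Fanconi anemia DNA repair complex (-0.24 in the PH against 0.37 in the POA) and *Harbi1*, a gene derived from a DNA transposon (-0.27 in the PH against 0.36 in the POA), were lower in the PH and higher in the POA at 4 months. For *Fancf*, the 6 POA libraries at 4 months, at 165 to 216, lay above all 5 intact ones, at 121 to 160.2. In the PH, 4 of 6 lay below every intact library. Also among the 10 smallest *P* of the difference, though at an unadjusted *P* under 0.05 in both regions for neither, were *Mrps18b*, a subunit of the mitochondrial ribosome (0.29 in the PH against -0.11 in the POA), and *Ahcyl2*, a regulator of ion transport (0.24 in the PH against -0.11 in the POA). The remaining opposite genes were *Hipk4*, *Extl1*, *Fam135a*, *Cnnm1*, *Pcdhga11*, *Haus1* and *Rtkn2*. Apart from *Gm28040*, 0 of the 16 differences were called after adjustment, and the smallest adjusted *P* among them was 0.667.

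Reproductive peptide genes were read as a family. Of 7 KNDy and kisspeptin genes tested, *Gm28040* and *Tac2* passed the unadjusted threshold in opposite directions, against 0.099% of all genes. *Pdyn*, the dynorphin precursor, had changes of 0.22 ± 0.22 and -0.41 ± 0.21 and a difference of 0.62 (95% interval 0.01 to 1.24, unadjusted *P* = 0.0475). Its values overlapped in both regions, at 1186 to 1441 and 1147 to 2420.1 in the PH and 1149 to 2026 and 848 to 2149 in the POA. For the receptors, the interval of the difference covered 0. *Tacr3*, the neurokinin B receptor, had 0.00 in the PH against -0.15 in the POA, with an interval of the difference of -0.16 to 0.46. For *Kiss1r*, the kisspeptin receptor, the interval was -0.45 to 0.17, and for *Oprk1*, the dynorphin receptor, -0.43 to 0.13. *Gnrh1*, which encodes gonadotropin-releasing hormone, had an interval of -0.99 to 1.03. The median change of the 7 genes was 0.22 (PH) and -0.15 (POA), and 1 of 7 had the same sign in both regions, against 59.8% of all genes.

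Of 6 lists of genes that mark the regions or neighboring tissue, those of the thalamus and of the tuberal hypothalamus had medians of opposite sign in the regions. Those of the choroid plexus (-0.16 and -0.16), the anterior pituitary (-0.18 and -0.16), the striatum and septum (-0.20 and -0.15) and the preoptic area (-0.01 and -0.02) had the same sign. Of 15 genes of the thalamus, which lies above the PH, 2 had the same sign in both regions, and the median change was -0.17 (PH) and 0.24 (POA). The PH value was 0.04 within batch 1 alone. *Tnnt1*, a troponin marking thalamic neurons (-0.08 in the PH against 1.10 in the POA), *Gbx2*, a homeobox gene of the thalamus (-0.37 in the PH against 0.69 in the POA), and *Calb2*, which encodes calretinin (-0.18 in the PH against 0.19 in the POA), passed an unadjusted *P* under 0.05 in the difference. Of all genes, 1.78% did so in that direction. For *Tnnt1* the PH libraries at 4 months ran from 298 to 1314 (median 409), and replicate 3 held the highest value. Genes of the tuberal hypothalamus had medians of 0.15 in the PH and -0.31 in the POA over 14 genes. Of these, *Sox14*, a transcription factor (0.46 in the PH against -0.34 in the POA), passed the unadjusted threshold in the difference, against 2.17% of all genes in that direction. Summed over its 15 genes, the thalamus list stood at 76294 to 98580.0 in the intact PH and 58399 to 141270.0 in the PH at 4 months, and at 52801 to 98643 and 62245 to 93902 in the POA. The part of the area dissected in the opposite changes of *Cartpt*, *Tac2* and *Kit* was not tested.

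**Figure D3:**
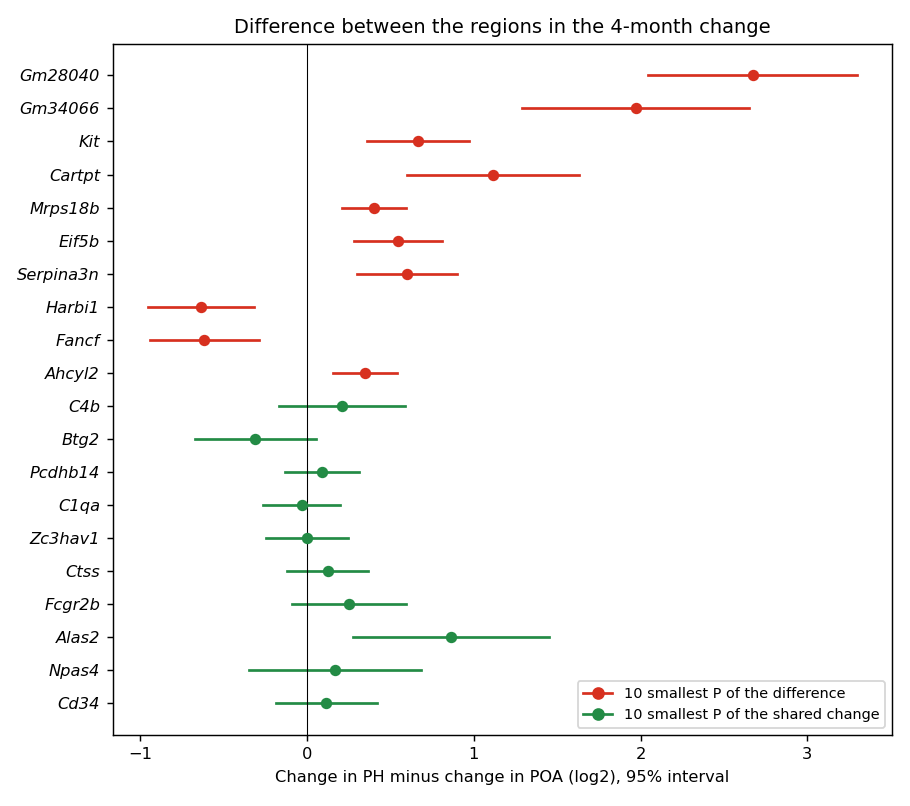
Difference between the regions (change in the PH minus change in the POA, log2, horizontal axis) with its 95% interval, for the 10 genes with the smallest *P* of the difference (red) and the 10 with the smallest *P* of the shared change (green). The intervals of *Gm28040* (2.05 to 3.30) and *Gm34066* (1.29 to 2.65) lie far from 0, and of the green genes only that of *Alas2* does not cover 0.

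Changes shared by the regions were tested on the mean of both. With all libraries taken as independent, the mean is measured more precisely than the difference (median SE over all genes 0.0735, against 0.147). The counts of calls therefore cannot be compared directly. The mean of both changes was called (limma, adjusted *P* under 0.05) for 117 genes, 0.724% of those tested, of which 91 (0.563%) rose and 26 (0.161%) fell. A gene was called alike when its mean change was called and each region had that sign at an unadjusted *P* under 0.05. This held for 106 genes, 83 higher and 23 lower. For these genes, rose and fell refer to the called mean change. PH and POA libraries of the intact and 4-month groups that share a replicate number deviated together, as did many of different number within a batch. With the number as a random block in limma, 102 means were called and 94 genes alike. With all values taken within a number (10 pairs, no covariate), 0 means were called and 0 genes alike. There, 610 means and 759 differences had an unadjusted *P* under 0.05 (limma), against 1991 and 637 in the fit with SV1. In that fit the mean change of *C4b* was 1.05 (adjusted *P* = 0.11), and those of *Btg2*, *C1qa* and *Zc3hav1* were 0.69, 0.41 and 0.39, with adjusted *P* of 0.191, 0.894 and 0.318. Among the 83, the change ranged from 0.22 to 1.53 in the PH (median 0.46) and from 0.19 to 1.07 in the POA (median 0.40). Among the 23, it ranged from -0.69 to -0.19 in the PH (median -0.28) and from -0.75 to -0.13 in the POA (median -0.24). The change was larger in the PH for 73 of the 106 genes, and that share was not taken over all genes. An unadjusted *P* under 0.05 in the difference (limma) was reached by 3, *Alas2*, *Pcdhga2* and *Car8*, against 3.94% of all genes. The 106 were chosen for the same sign and that threshold in each region, which itself limits such differences. Taken region by region, 27 genes were called in the PH (0.167%, with 0.136% higher and 0.0309% lower) and 7, all higher, in the POA (0.0433%), and 4 were in both, *C4b*, *C1qa*, *Zc3hav1* and *Pcdhb14*. Of the 27, 16 had the same sign at an unadjusted *P* under 0.05 in the POA, and of the 7, all 7 did in the PH. Leaving out 1 library moved the number called in the PH to between 7, without replicate 2 of the intact PH, and 41, without replicate 2 of the PH at 4 months, and that in the POA to between 2 and 9. Within pairs of the same number, 3 were called in the PH and 0 in the POA, where 576 had an unadjusted *P* under 0.05 (limma).

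**Figure D4:**
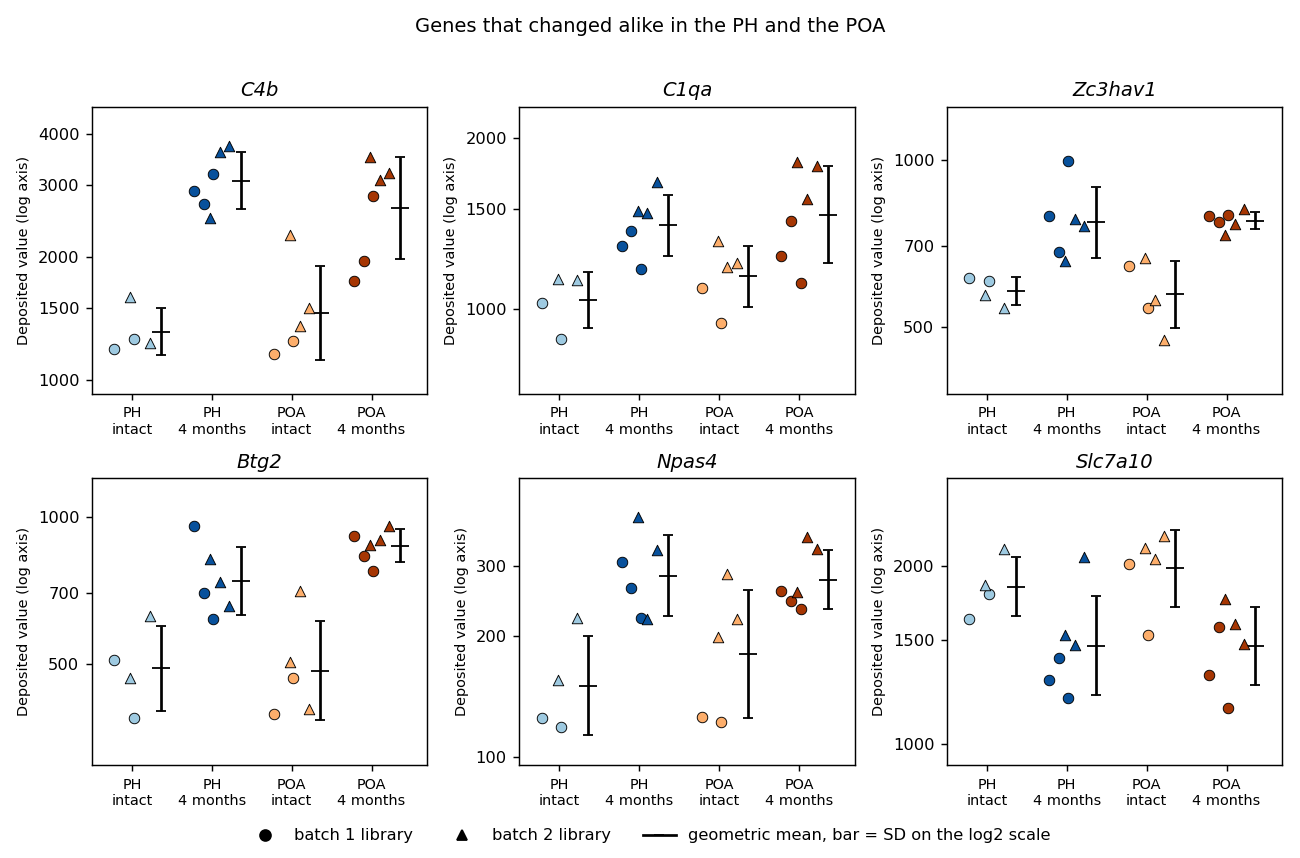
Deposited values (vertical log axis) of *C4b*, *C1qa*, *Zc3hav1*, *Btg2*, *Npas4* and *Slc7a10* in each library of the 4 groups, with circles for batch 1, triangles for batch 2 and the geometric mean with the SD on the log2 scale. *Zc3hav1* at 4 months lies above all intact libraries in both regions (657 to 997 in the PH, 731 to 814 in the POA), and *Slc7a10* lies lower at 4 months in both.

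The shared change with the smallest *P* was that of *C4b* (chr17:34947354-34962912, minus strand), which encodes complement component C4. Intact PH libraries stood at 1193, 1233, 1264 and 1598, and those at 4 months at 2497 to 3742 (median 3058), without overlap. In the POA the values were 1156, 1249, 1357, 1499.8 and 2271 in intact mice and 1752 to 3519.7 (median 2961) after 4 months, with 4 of 6 above every intact library. *C4b* rose by 1.19 ± 0.13 in the PH and 0.98 ± 0.13 in the POA (limma, adjusted *P* = 1.43e-05 and 1.55e-04), and the difference was 0.21 (95% interval -0.17 to 0.59). The mean change was 1.04 in batch 1 and 1.09 in batch 2. The near-identical copy *C4a* had changes of -0.03 and 0.46, neither at an unadjusted *P* under 0.05, and reads shared by the copies could be divided between them. *C1qa*, *C1qb* and *C1qc*, which encode the chains of C1q, the starter of the classical pathway, rose as well, with PH and POA changes of 0.40 and 0.43 for *C1qa*, 0.38 and 0.29 for *C1qb*, and 0.37 and 0.33 for *C1qc*. For *C1qa* the interval of the difference was -0.27 to 0.20. *Itgam*, a subunit of complement receptor 3, was called too (0.31 in the PH against 0.22 in the POA). Of 18 complement genes tested, 6 passed the unadjusted threshold upward in both regions, against 0.866% of all genes, and the list's median change was 0.28 in the PH and 0.24 in the POA.

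Several microglial genes rose in both regions. *Ctss*, the protease cathepsin S, rose by 0.46 in the PH and 0.34 in the POA, with 5 of 6 libraries of each region above every intact one. *Fcgr2b*, the inhibitory Fc receptor, stood at 126, 149, 153 and 211 in the intact PH and 211 to 304 (median 241) at 4 months. In the POA, it was 154, 160.3, 164, 185 and 188, and every 4-month library lay above these, with a median of 224 and a highest value of 292. Its change was 0.68 ± 0.12 and 0.43 ± 0.12, with a difference of 0.25 (95% interval -0.09 to 0.59). *Tyrobp*, the adaptor of microglial receptors, and *Cd68*, a lysosomal protein, were also called, with PH and POA changes of 0.39 and 0.47 for *Tyrobp*, and 0.43 and 0.30 for *Cd68*. Of 20 activated microglia genes, 5 were higher in both regions at the unadjusted threshold, against 0.866% of all genes. *Lgals3*, galectin 3, differed at that threshold (-0.11 in the PH against 0.77 in the POA, limma, unadjusted *P* of the difference 0.00691), against 1.78% of all genes in that direction. Of 15 homeostatic microglia genes, all 15 had the same sign in both regions, against 59.8% of all genes. At the unadjusted threshold 3 were higher in both, against 0.866%, and 1, *Fcrls*, was lower, against 0.674% (-0.34 in the PH against -0.37 in the POA). The mean change of *Fcrls* was called too, but it is not among the 106 alike, which count only genes annotated as protein-coding. The 5 microglia markers summed to 10750.2 to 12029 in the intact PH and 11899 to 13351 at 4 months, and to 10750.2 to 11955 and 11754 to 13399 in the POA, and their part in these changes was not tested.

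Lists of antigen presentation and interferon-stimulated genes had positive medians in both regions, with few calls. *Zc3hav1*, the antiviral zinc finger protein ZAP, stood at 540.0, 571, 605 and 611 in the intact PH and 657 to 997 (median 771) after 4 months. In the POA the values were 474, 540.0, 559.5, 645 and 665 and 731 to 814 (median 782), again without overlap. It rose by 0.44 ± 0.09 and 0.44 ± 0.08 (limma, adjusted *P* = 0.0271 and 0.0306), and the 95% interval of the difference was -0.25 to 0.25. The mean change was 0.42 in batch 1 and 0.43 in batch 2. *B2m*, the light chain of MHC class I, and *Psmb9*, an immunoproteasome subunit, were called alike, with PH and POA changes of 0.46 and 0.31 for *B2m*, and 0.89 and 0.59 for *Psmb9*. *Rsad2*, the antiviral enzyme viperin, had changes of 0.89 ± 0.23 and 0.57 ± 0.22. Of 33 interferon-stimulated genes tested, 32 had the same sign in both regions, against 59.8% of all genes, and 5 were higher in both at the unadjusted threshold, against 0.866%, with medians of 0.31 in the PH and 0.23 in the POA. Over 18 genes of MHC class I presentation the medians were 0.38 and 0.35. Only *Erap1*, a peptidase that trims antigenic peptides, passed the unadjusted threshold in the difference (0.26 in the PH against -0.15 in the POA), against 2.17% of all genes in that direction.

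Promoters of an interferon-stimulated gene and an activity-regulated gene called alike are printed to show the motifs found in them. The printed stretches cover the 250 bases before the RefSeq start site (GRCm38.p6), written along the gene's strand. The capitals mark, in *Rsad2*, the ISRE core (GAAA, any 2 bases and GAAA again, found on the reverse strand at position -120 from the start) and, in *Btg2*, the CRE (TGACGTCA, at position -166). Sterol and estrogen response elements were searched as well and were not in these windows. The search covered both strands of the 250 bases before and 50 after the start. Of 27025 gene symbols with a promoter in the reference set, 3.99% had the ISRE core and 2.03% the CRE in any promoter. Among tested protein-coding genes in that set, the shares were 3.67% and 3.15%. The ISRE core was found for 17 of 25 interferon-stimulated genes in the set. The CRE was found for 1 of 16 immediate early genes, *Btg2* itself. Only 60 of the 83 genes called alike and higher had a promoter in the reference set, too few for a share over the 83.
Rsad2 promoter, chr12:26456453-26456702: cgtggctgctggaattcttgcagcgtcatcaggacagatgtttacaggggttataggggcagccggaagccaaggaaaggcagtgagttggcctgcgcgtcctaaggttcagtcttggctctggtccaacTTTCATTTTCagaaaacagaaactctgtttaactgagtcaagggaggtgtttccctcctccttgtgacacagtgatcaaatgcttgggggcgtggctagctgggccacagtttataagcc
Btg2 promoter, chr1:134079156-134079405: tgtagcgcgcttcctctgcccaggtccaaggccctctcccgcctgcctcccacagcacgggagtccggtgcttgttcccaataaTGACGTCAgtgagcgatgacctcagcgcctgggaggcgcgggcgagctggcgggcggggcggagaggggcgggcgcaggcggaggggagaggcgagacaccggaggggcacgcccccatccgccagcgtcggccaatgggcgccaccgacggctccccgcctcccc

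Among genes induced by neuronal activity, the regions were called alike for *Btg2* and *Npas4*. *Btg2*, an antiproliferative gene, was 386, 466, 508 and 626 in the intact PH and 619 to 962 (median 717) at 4 months. The POA values were 395, 403, 467, 503 and 705, and after 4 months 774 to 962 (median 889.5), without overlap. It rose by 0.89 ± 0.12 in the POA (limma, adjusted *P* = 2.25e-04), and in the PH its change was 0.58 ± 0.13 (adjusted *P* = 0.0604), with a difference of -0.31 (95% interval -0.67 to 0.05). *Npas4*, a transcription factor induced by calcium, rose, with 0.90 ± 0.18 in the PH and 0.74 ± 0.17 in the POA (limma, adjusted *P* of the mean change = 4.42e-04). Its values overlapped, at 119 to 222 and 221 to 396 in the PH and 122 to 285 and 234 to 354 in the POA. Of 20 immediate early genes, 3 were higher and 0 lower in both regions at the unadjusted threshold (limma), against 0.866% and 0.674% of all genes. In the POA alone, 4 were higher and 4 lower at that threshold, the latter *Fosb*, *Fosl2*, *Egr1* and *Nr4a3*, with -0.47, -0.37, -0.49 and -0.84, and in the PH 4 were higher and 0 lower. Of all genes, 3.04% were higher and 3.5% lower in the POA, and 4.25% higher and 4.96% lower in the PH. *Nr4a3*, an orphan nuclear receptor, differed at that threshold (-0.15 in the PH against -0.84 in the POA). The 6 *Fos* and *Jun* genes tested gave 0 genes at that threshold in both regions. All 3 genes of the *Zfp36* family, which encode proteins that speed the decay of mRNAs, were called alike, with PH and POA changes of 0.69 and 0.40 for *Zfp36*, 0.26 and 0.30 for *Zfp36l1*, and 0.37 and 0.29 for *Zfp36l2*. This family was picked after its values were seen.

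The largest change among the genes called alike was that of *Hbb-bt*, a beta globin (1.53 in the PH against 1.07 in the POA). Of 9 hemoglobin and red cell genes tested, 6 were higher in both regions at the unadjusted threshold, against 0.866% of all genes. A called rise of the mean was found for 7, against 0.563%, and the median change was 1.35 in the PH and 0.76 in the POA. *Hbb-bs*, its neighbor, stood at 2714, 2888, 3261 and 3668 in the intact PH and 4457 to 16731 (median 8059) at 4 months. Values in the POA were 3030.3, 3173, 3229.7, 3543 and 6749 and 4206 to 10016 (median 6348), with overlap. *Alas2*, the enzyme that starts heme synthesis in red cells, rose by 1.37 ± 0.21 in the PH (limma, adjusted *P* = 8.85e-04) against 0.51 ± 0.20 in the POA, and the difference of 0.86 (95% interval 0.27 to 1.45) was not called. The globin copies are near-identical, and reads could be divided between them. The summed red cell markers (*Hba-a1*, *Hbb-bs* and *Alas2*) were 3683 to 5041 in the intact PH and 6787 to 22374 at 4 months, and 4105 to 9242 and 5603 to 12988 in the POA, and the part of blood left in the tissue in these changes was not tested. Endothelial genes were called alike for *Flt1* and *Kdr*, the VEGF receptors, and *Ly6a*, with PH and POA changes of 0.59 and 0.41 for *Flt1*, 0.59 and 0.65 for *Kdr*, and 0.62 and 0.59 for *Ly6a*. *Cd34*, a surface protein of vessels, did not overlap between groups in either region, at 638 to 836 and 889 to 1497 in the PH and 694 to 888 and 928 to 1254 in the POA. Of 16 endothelial and barrier genes, 5 were higher in both regions at the unadjusted threshold, against 0.866% of all genes.

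Clustered protocadherins, adhesion proteins that give neurons individual surfaces, contributed 8 of the 106 genes called alike. They were *Pcdhb3*, *Pcdhb6*, *Pcdhb9* and *Pcdhb14* of the beta cluster and *Pcdhga2*, *Pcdhga6*, *Pcdhga7* and *Pcdhgb2* of the gamma cluster, and all were higher at 4 months. *Pcdhb14* stood at 527, 548, 559.8 and 585 in the intact PH and 678 to 904 (median 758) at 4 months. In the POA it was 521, 525, 556, 618 and 654 and then 648 to 945 (median 798). Its changes were 0.46 ± 0.08 and 0.37 ± 0.07 (limma, adjusted *P* = 0.0039 and 0.0402), with a difference of 0.09 (95% interval -0.13 to 0.31). Of the 22 beta genes tested, 6 were higher in both regions at the unadjusted threshold, against 0.866% of all genes. By contrast, the 14 alpha genes and the 3 gamma C genes gave 0 such genes, although the families were not tested against each other. These genes resemble one another in sequence, so that reads could be divided between them. *Pcdhb1* was higher in the PH (0.78, adjusted *P* = 0.0128), with 0.27 in the POA.

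**Figure D5:**
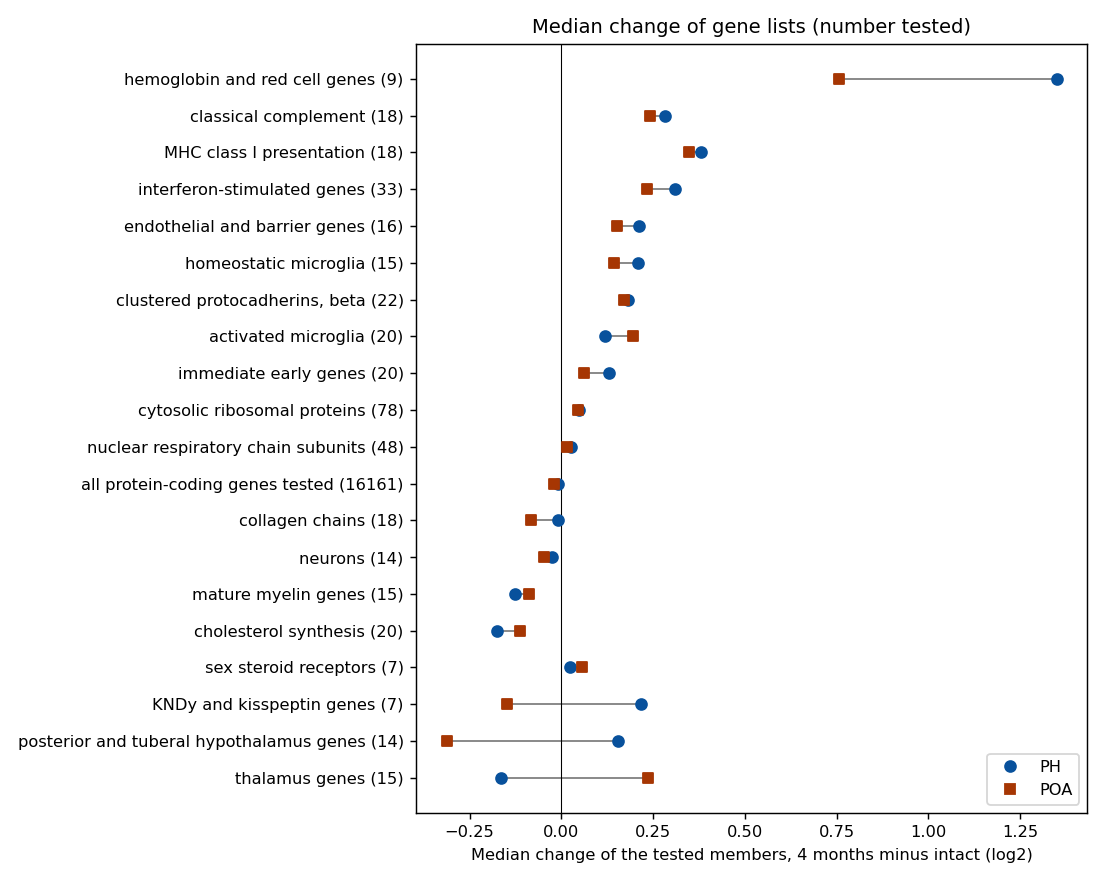
Median change of the tested members of gene lists from intact to 4 months (log2, horizontal axis) in the PH (circles) and the POA (squares), with the number tested in brackets. The complement list lies at 0.28 and 0.24, on the same side of 0 in both regions, and the KNDy (0.22 and -0.15), tuberal (0.15 and -0.31) and thalamus lists (-0.17 and 0.24) lie on opposite sides.

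Genes that fell alike included *Slc7a10*, an amino acid transporter of astrocytes, at 1624, 1796, 1856 and 2139 in the intact PH and 1195 to 2071 (median 1434) after 4 months. The POA libraries stood at 1531, 2011, 2057, 2147 and 2248 and 1151 to 1756 (median 1528). Its change was -0.39 ± 0.09 in the PH and -0.39 ± 0.08 in the POA (adjusted *P* of the mean change = 4.42e-04), and the 95% interval of the difference was -0.25 to 0.25. *Gpr17*, a receptor of maturing oligodendrocyte precursors, *Fabp7*, a fatty acid binding protein of glial progenitors, and *Tfrc*, the transferrin receptor, fell too, with PH and POA changes of -0.28 and -0.41 for *Gpr17*, -0.47 and -0.43 for *Fabp7*, and -0.42 and -0.30 for *Tfrc*. Of 20 genes of cholesterol synthesis, 5 were lower in both regions at the unadjusted threshold, against 0.674% of all genes, and 2 were called, with PH and POA changes of -0.27 and -0.19 for *Cyp51*, and -0.36 and -0.21 for *Idi1*. The list had medians of -0.18 in the PH, with 11 members lower at that threshold, and -0.11 in the POA, with 6 lower. Of all genes, 4.96% were lower in the PH and 3.5% in the POA. *Pgr*, the progesterone receptor and a classical target of estradiol, stood at 1972 to 2076 in the intact PH and 1327 to 1965 at 4 months, and at 1772 to 2181 and 1512 to 1994 in the POA. Its changes were -0.22 ± 0.08 and -0.24 ± 0.07, and the mean change fell (limma, adjusted *P* = 0.022). It was the only called gene of 7 sex steroid receptors and cofactors tested.

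Some genes changed in 1 region without a matching call in the other. *Serpina3n*, a protease inhibitor of reactive astrocytes, stood at 792, 803, 819.6 and 996 in the intact PH and 1001 to 1689 (median 1457) at 4 months, without overlap. POA values were 927, 949, 1114, 1179 and 1246 and 950.1 to 1304 (median 1110.2). It rose by 0.70 ± 0.11 in the PH (limma, adjusted *P* = 8.85e-04) against 0.10 ± 0.10 in the POA, yet the difference of 0.60 was not called (95% interval 0.30 to 0.90, adjusted *P* = 0.794). Within batches the difference was 0.37 in batch 1 and 0.86 in batch 2, and without replicate 3 of the PH at 4 months it was called (0.71, adjusted *P* = 0.0209). In the PH, *Ryr2*, a calcium release channel, rose (0.63, against 0.13 in the POA), whereas *Nrep*, a neuronal regeneration protein, and *Tuba1a*, an alpha tubulin, fell (-0.49 and -0.24, against -0.06 and -0.06). In the POA, *Fbln5*, a protein of elastic fibers, rose by 0.86 ± 0.17 (limma, adjusted *P* = 0.0404), and in the PH its change was 0.42 ± 0.18, with an interval of the difference of -0.95 to 0.06 (it is among the genes called alike). *Dusp1*, a phosphatase that ends MAPK signaling, had 0.11 in the PH against 0.68 in the POA, with a difference of -0.57 ± 0.21 (SE). After adjustment, *Dusp1* was called in neither region, and its difference was not called. Of the genes called in a single region, only *Gm28040* and *Gm34066* had a called difference.

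For the other genes of the mouse data that the study discusses, the difference was not called, and its 95% interval is given. For *Gfap*, the astrocyte filament, the changes were 0.44 in the PH against 0.12 in the POA, with an interval of the difference of -0.27 to 0.91. *Vim*, another filament, had -0.34 to 0.56, *Aif1*, the microglial protein IBA1, -0.04 to 0.77, and *Tspo*, the mitochondrial translocator protein, -0.48 to 0.34. *Ptgs2*, the inducible prostaglandin synthase, had 0.82 in the PH against 0.78 in the POA and an interval of -0.92 to 1.00. *Thsd4*, a protein of microfibrils, passed the unadjusted threshold in the difference (0.51 in the PH against -0.04 in the POA), and *Cdkn1a*, the cell cycle inhibitor p21, and *Akap5*, a kinase anchor of synapses, did not, with intervals of -0.44 to 0.66 and -0.75 to 0.52. Of 48 nuclear subunits of the respiratory chain and 18 collagen chains, 0 passed that threshold in either region.

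Further genes called alike fell outside the lists. *Apol11b*, an apolipoprotein L, changed by 1.18 in the PH against 1.01 in the POA. *Edn1*, the vasoconstrictor endothelin 1, *Cxcl12*, a chemokine, and *Csf1*, a growth factor of microglia, rose in both regions, with PH and POA changes of 0.53 and 0.55 for *Edn1*, 0.42 and 0.38 for *Cxcl12*, and 0.34 and 0.33 for *Csf1*. *Dll4*, a Notch ligand of vessel tips, and *Adamts1*, a secreted protease, did as well, with PH and POA changes of 0.69 and 0.67 for *Dll4*, and 0.58 and 0.61 for *Adamts1*. *Irf1*, an interferon-induced transcription factor, did not overlap between groups in either region and stood at 211 to 294 and 304 to 654 in the PH and 265 to 319 and 319.9 to 625 in the POA. *Depp1*, a target of forkhead factors and of glucocorticoids, rose by 0.81 in the PH against 0.84 in the POA, and *Tgm2*, a transglutaminase on the list of estrogen-responsive genes, by 0.34 in the PH against 0.36 in the POA. Downward, *Zfp57*, which maintains imprints, and *Spred3*, an inhibitor of Ras signaling, were called, with PH and POA changes of -0.45 and -0.56 for *Zfp57*, and -0.20 and -0.32 for *Spred3*. The predicted gene *Gm3005* fell too, with -0.69 in the PH against -0.75 in the POA.

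Hypothalamic peptides and their receptors are given by their counts. Of 28 peptide genes tested, 15 had the same sign in both regions (53.6%, against 59.8% of all genes), and 0 passed the unadjusted threshold (limma) in the same direction in both, against 1.54% of all genes. *Agrp*, the appetite-stimulating peptide of arcuate neurons, was lower at an unadjusted *P* under 0.05 in the PH (-0.52, against -0.23 in the POA), and *Ghrh*, which encodes growth hormone-releasing hormone, was lower in the POA (-0.39, against -0.10 in the PH). *Ucn3*, a peptide of the corticotropin-releasing hormone family, had -0.48 in the PH against 0.43 in the POA, and its values ranged from 98.6 to 209.8 in the intact PH, 63.3 to 169.9 in the PH at 4 months, 100.2 to 166 in the intact POA and 108 to 226 in the POA at 4 months. Of 28 receptor genes, 46.4% had the same sign. Among them 1, *Igf1r*, the receptor of insulin-like growth factor 1, was higher in both regions at the unadjusted threshold (0.29 in the PH against 0.18 in the POA), against 0.866% of all genes. *Crhr1*, a receptor of corticotropin-releasing hormone, differed at that threshold (0.25 in the PH against -0.12 in the POA), against 2.17% of all genes in that direction. Of 34 estrogen-responsive genes, 16 had the same sign, and *Pgr* and *Tgm2* were the ones called alike.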

How the data were processed

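The measurements are RNA-seq of mRNA from dissected PH and POA of intact mice and of mice 14 days and 4 months after OVX. According to the submitters' processing notes and the study's methods, reads were pseudoaligned with kallisto to mm39 and imported through tximport into DESeq2, with surrogate variables from smartSVA. The deposited values are a signal that the authors normalized between libraries, on a linear scale, and the step from DESeq2 to these values is not stated. A shared component is visible as 108 genes that lie on 1 line across libraries (tolerance 1e-05 on the log2 scale), and its share in other genes is not known. Only 2.19e-04% of values were whole numbers, so no count test was used and limma replaced it. The table held 42824 entries, of which 1259 without a name were left out, and 972 of the 41565 named ones had no symbol in GENCODE M39. Of the names, 53 had more than 1 entry. All columns matched a sample.

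Log2 values were taken without a pseudocount. Genes were kept when they reached 2 times the floor (22.1) in at least 4 PH or 5 POA libraries, which left 22120 genes, 16161 of them protein-coding. A linear model over all 33 libraries, in 6 groups of region and time, with the first surrogate variable (SV1) of each region as covariate, was fitted in limma 3.58.1 (R 4.3.3, trend and robust). SV1 was computed here, on all libraries of a region. Benjamini-Hochberg adjustment covered the 22120 genes, calls required an adjusted *P* below 0.05, and counts are of protein-coding genes. All tests are 2-sided. Groups came from the titles and batches from the labels. Replicate numbers are shared by the regions, and the labels do not tie them to 1 mouse. In the 10 pairs of intact and 4-month libraries, deviations of same-numbered libraries from the group means correlated at 0.138 to 0.452, and at -0.0108 to 0.243 once also centered on batch, which a number shares across regions in these pairs. Over all times, the median was 0.231 for 16 pairs of the same number and 0.1465 for 30 of different number in the same batch. Once centered on batch, these medians were 0.0422 and -0.0284, so that much of the likeness was shared by the batch. The same-numbered pairs at 14 days went as low as -0.33. The main fit took all libraries as independent. Fits that take same-numbered libraries as pairs, with the number as a block, are given beside the results they change. Tables and plots were made with Python 3.11.15, pandas 2.3.3, numpy 2.4.6 and matplotlib 3.10.9. The procedure was tested on simulated data.

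Named genes were the 10 with the smallest *P* of the difference, the 10 with the smallest *P* of the mean change among those alike, the 10 most certain opposite ones, those called in a single region, list members and genes the study discusses. The 16 opposite genes, those that did not overlap in both regions and the further genes called alike were named after their values were seen. The members and lists were chosen with earlier results of these data known. Alternatives were other covariates, scaling, filters, a pseudocount, other variance estimates, samples, batches, a replicate block, a fold minimum and leaving out each library. Promoters came from RefSeq (GRCm38.p6). Depth, and with it counting error, could not be assessed from these values.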

Additional observations from a re-analysis of the deposited data

Results flagged for a closer look

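In groups of 4 to 10 libraries, the highest and the lowest value of a gene were screened on the linear scale. Sought was a gap to the next value that was large against the range of the group, over 104 groups of 26 named genes. Chance gives about 1 in 20 groups, counting both ends, and 8 were found, all of them highest values. In the PH at 4 months, *Gm28040* reached 325.7 in replicate 5, and replicate 3 held the highest values of *Alas2*, 642, and *Cd34*, 1497. In the POA at 4 months, *Ahcyl2*, a regulator of ion transport, stood at 10971 in replicate 1, *Fcgr2b* at 292.2 in replicate 3 and *Tac2* at 1404 in replicate 5. Among intact mice, *Serpina3n* was 996.1 in replicate 1 of the PH and *Alas2* 324.2 in replicate 5 of the POA. The change differed between the regions, by the test of the difference itself (limma), for *Gm28040* (2.672 on the log2 scale, adjusted *P* = 1.38e-05) and for *Gm34066* (1.971, adjusted *P* = 0.017).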

How the results depend on the processing

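The numbers of genes called depended on the covariates and on single libraries. With batch in place of SV1, 62 genes had a called mean change, 159 passed the unadjusted threshold in both regions in the same direction and 10 in opposite directions, 56 were called alike, and 12 were called in the PH and 1 in the POA. With no covariate these numbers were 46, 115, 8, 43, 7 and 1, and with SV1 and batch together 277, 377, 36, 223, 60 and 15. With the component seen in 108 genes and batch as covariates, 15 genes were called in the PH and 1 in the POA. With only the 21 libraries compared, 1 gene differed between the regions, and 12 were called in the PH and 2 in the POA. Batch 1 alone gave 0 differences (at an adjusted *P*, limma), 9 called means, 98 genes in the same direction, 9 alike, 1 in the PH and 0 in the POA. Batch 2 alone gave 0, 0, 45, 0, 1 and 0, and 6 opposite genes. At an unadjusted *P* under 0.05 (limma), 458 differences and 662 genes in the POA passed in batch 1, and 298 differences, 583 means and 301 genes in the POA in batch 2. With all genes counted, 12 were called in the POA. With a fold of at least 1.5, 25 means, 19 genes in the same direction, 1 opposite, 22 alike, 16 in the PH and 4 in the POA remained past the thresholds.

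Leaving out 1 library gave 1 to 3 differences between the regions, 78 to 148 called means, 201 to 288 genes in the same direction, 9 to 29 in opposite directions, 71 to 135 alike, 7 to 41 called in the PH and 2 to 9 in the POA. Without replicate 2 of the intact PH, 78 means were called and 71 genes alike. Without replicate 5 of the PH at 14 days, these numbers were 148 and 135. That library, which was not among those compared, had the largest SV1 value (0.786). The PH count was 7 without replicate 2 of the intact PH, 11, 10 and 15 without intact replicates 1, 3 and 4, and 41, 13 and 16 without 4-month replicates 2, 4 and 5. Of the opposite genes, 10 were left without replicate 1 of the intact PH and 9 without replicate 4 of the PH at 4 months, and 29 passed without its replicate 3. Between 2 and 4 genes were called in the POA without replicates 1, 2, 3 or 5 of the intact POA, 3, 5 or 6 of the POA at 4 months, 3 of the intact PH or 2 of the PH at 14 days. The difference of *Gm28040* was called under 47 of 49 settings and missed the threshold in batch 1 alone (adjusted *P* = 0.12) and batch 2 alone (0.268). That of *Gm34066* was called under 39. Only 1 difference was called without replicates 2, 3 or 4 of the intact PH, 1 or 5 of the intact POA or 6 of the POA at 4 months.

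The replicate block follows the pairing given in the methods. With the difference taken within each number as a replicate block, 1 gene differed between the regions, 0 means were called, 101 genes passed in the same direction and 4 in opposite directions, 0 were alike, and 3 were called in the PH and 0 in the POA. Unadjusted (limma), 759 differences, 610 means and 576 genes in the POA passed this block. With the number as a random replicate block, the numbers were 2 differences, 102 means, 94 alike, 244 in the same direction and 16 in opposite directions, and 27 in the PH and 7 in the POA.

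Reversed signs concerned differences near 0. With batch in place of SV1, the difference was 0.0169 for *Tspo* and -0.0301 for *Ptgs2*, with no covariate 0.0641 and -0.0569, and with the component and batch 0.0555 and -0.166. With SV1 and batch it was -0.119 for *Ptgs2* and 0.0181 for *Akap5*. Batch 1 alone gave -0.128 for *Tacr3*, -0.0726 for *Vim*, -0.271 for *Ptgs2* and -0.459 for *Cdkn1a*, and batch 2 alone 0.320 for *Tspo* and 0.0397 for *Akap5*. The replicate block within numbers gave 0.0111 for *Tspo*. Over the libraries left out in turn, the difference ranged from -0.145 to 0.0501 for *Tspo*, -0.214 to 0.234 for *Ptgs2*, -0.0315 to 0.275 for *Cdkn1a* and -0.246 to 0.0505 for *Akap5*, turning sign without replicate 3 (*Tspo*, *Akap5*) or 4 (*Cdkn1a*) of the PH at 4 months and without 10 single libraries for *Ptgs2*. The causes were not tested. Median changes of the complement, MHC class I, interferon, microglia, endothelial, hemoglobin, protocadherin beta, cholesterol, KNDy and tuberal lists kept their sign in both regions under all 49 settings. The median of the thalamus list in the PH was 0.04 in batch 1 alone.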

Other observations

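Genes encoded by the mitochondrial genome gave values that the comparisons do not use. Of 13 tested, 2 had an unadjusted *P* under 0.05 in the difference (limma), both more downward in the PH, against 1.78% of all genes in that direction. They were *mt-Atp6* (-0.33 in the PH against 0.02 in the POA) and *mt-Atp8* (-0.59 in the PH against 0.08 in the POA), both subunits of ATP synthase, and neither was called after adjustment. *Acan*, the core protein of perineuronal nets, had 0.72 in the PH against -0.01 in the POA, with a 95% interval of the difference of 0.26 to 1.20 and within batches 0.76 in batch 1 and 0.72 in batch 2. Among 15 genes of mature myelin, *Mog* and *Cldn11* were lower in both regions at the unadjusted threshold, with PH and POA changes of -0.28 and -0.21 for *Mog*, and -0.25 and -0.18 for *Cldn11*, against 0.674% of all genes, and *Aspa*, an enzyme of oligodendrocytes, passed it in the PH (-0.28 in the PH against -0.03 in the POA). In the other direction, *Trf*, transferrin, was higher at that threshold in the PH (0.22) and *Ermn*, a cytoskeletal protein of myelin, in the POA (0.20). The differences of these 5 myelin genes were not called. Of 21 glucocorticoid-induced genes, 2 were higher and 2 lower in both regions at the unadjusted threshold, against 0.866% and 0.674% of all genes. The lower ones were *Per1* and *Klf9*, with PH and POA changes of -0.30 and -0.31 for *Per1*, and -0.23 and -0.20 for *Klf9*. Of 18 clock genes tested, 0 were higher and 1, *Per1*, was lower in both regions at that threshold.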
